A study of Homo sapiens with 6 samples.

Results

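The 4 human alkaline phosphatase genes were followed in CAL27 cells, an established line of human tongue squamous cell carcinoma, with and without overexpression of RBM24. They are ALPP (placental), ALPG (germ cell), ALPI (intestinal) and ALPL (the tissue-nonspecific form), and they were taken by symbol from the 32353 genes of the count table. All 4 were in the table, and 2 of them, ALPP and ALPG, passed the filter on low counts with which 17887 genes were tested. Total RNA was extracted and sequenced from 3 libraries of cells given a control plasmid and 3 of cells overexpressing RBM24, an RNA-binding protein known as a regulator of splicing and of mRNA stability in muscle. Both groups are the same cell line, and the labels give neither the time after plasmid delivery nor whether the replicates were separate cultures, so that errors and p-values reflect the spread of these libraries alone, which may be technical. The family was taken up because an earlier look at this same comparison had shown ALPP among the genes that rose, so the members were in effect chosen by measured fold changes of this contrast. The levels of the 4 genes with and without RBM24 are therefore given as a description. Calls of ALPP and ALPG in this contrast are printed only beside the share of all genes called, and nothing is read from them.

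Alkaline phosphatases are zinc- and magnesium-dependent ectoenzymes that remove phosphate from many substrates. They are folded and loaded with zinc in the secretory pathway and are held on the outer face of the cell membrane by a glycosylphosphatidylinositol (GPI) anchor. ALPL is found in bone, liver and kidney, where its enzyme hydrolyses pyrophosphate, an inhibitor of mineralisation, and dephosphorylates extracellular pyridoxal phosphate, a form of vitamin B6. The other 3 genes arose by duplication and have narrow normal expression: ALPP in the syncytiotrophoblast of the placenta, ALPG in placenta and germ cells and ALPI on the brush border of enterocytes. ALPP and ALPG are also known for ectopic expression in tumours, the source of the classic Regan and Nagao isoenzymes in serum.

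ALPP (ENSG00000163283.7, GRCh38 chromosome 2, 232378534 to 232382889), ALPG (ENSG00000163286.9, 232406843 to 232410714) and ALPI (ENSG00000163295.5, 232456123 to 232460032) lie side by side on the plus strand, while ALPL (ENSG00000162551.14) lies alone on chromosome 1, 21509372 to 21578412, also on the plus strand. Coordinates are those of GENCODE 29. How far reads can be told apart among the 3 neighbours bears on every value below, so their sequences come first. The coding sequences of ALPP (1608 bases) and ALPG (1599 bases) were identical at 1564 of 1599 aligned bases (97.8%). Identity to ALPI was 89.7% for ALPP and 89.5% for ALPG, and to ALPL it was 64.1% for ALPP and 64.2% for ALPG.

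The longest stretch without a difference between the coding sequences of ALPP and ALPG ran for 339 bases, from coding base 957 to 1295 of ALPP, across parts of exons 8 and 10 and the whole of exon 9. Exon 9 (192 bases) is printed because a read that falls inside it carries nothing to place it in one gene or the other. In ALPP it lies at chr2:232380840-232381031 and in ALPG at chr2:232408921-232409112, plus strand.

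ALPP and ALPG, exon 9: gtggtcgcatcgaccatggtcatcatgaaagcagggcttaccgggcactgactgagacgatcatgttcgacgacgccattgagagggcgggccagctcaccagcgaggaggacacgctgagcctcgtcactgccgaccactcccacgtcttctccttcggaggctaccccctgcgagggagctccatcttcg

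A window of 150 bases, the length of 1 read of a pair, was slid along the ALPP transcript of 2971 bases and set against every position of the ALPG transcript without gaps. Of 2822 windows, 199 (7.05%) were identical to a window of ALPG and 26.1% differed at up to 2 bases. Within the coding part the median window differed at 2 bases, and 50.4% of the windows differed at up to 2. Against ALPI, 0 of 2822 windows were identical or within 2 bases, with a median of 35 differences over the whole transcript and 14 within the coding part. ALPP and ALPG counts may therefore hold some reads of each other, depending on how the authors' counter treated reads with more than 1 place, which the sources used here do not give. No window of ALPP or ALPG came within 2 bases of ALPI or ALPL.

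**Figure D1:**
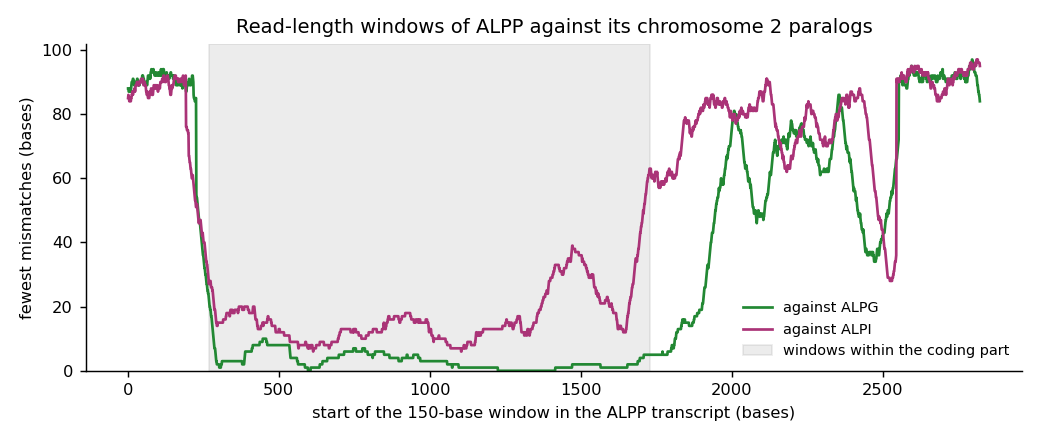
Fewest mismatches, in bases, between each 150-base window of the ALPP transcript (horizontal axis: start of the window, in bases) and any window of the ALPG or ALPI transcript, without gaps; the shaded part holds the windows within the coding sequence. The ALPG line lies near 0 over much of the coding part (median 2) and climbs in the part after the stop codon, while the ALPI line has a median of 14 in the coding part.

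The similarity extended upstream. The 250 bases before the RefSeq start (GRCh38.p14) were identical between ALPP and ALPG at 212 of 229 aligned bases (92.6%), against 68.4% between ALPP and ALPI and 68.3% between ALPG and ALPI. The regions are chr2:232378501-232378750 for ALPP, chr2:232406594-232406843 for ALPG and chr2:232455903-232456152 for ALPI, all on the plus strand. The annotations differ on where ALPP begins: 217 of its 250 bases lie inside the GENCODE gene, against 1 base for ALPG and 30 for ALPI. The runs of at least 10 bases that all 3 regions hold are printed, in their order, because they are what the cluster shares before the start.

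shared run 1: AGCCACACCC

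shared run 2: TCCCTTCAGC

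shared run 3: TGGCTTCAGGTCA

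shared run 4: CCCTGATTTAAACCC

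The 4 runs hold 48 of the 250 bases in each region, and the longest has 15 bases. The longest run contains TTTAAA, which reads the same on both strands and begins 30 bases before the RefSeq start in ALPP and ALPG and 28 bases before it in ALPI. Of 35116 upstream windows of the same length in the RefSeq table, 11.3% hold TTTAAA. Shared run 3 contains AGGTCA, a half-site of nuclear receptors, found in 12.1% of windows. The 3 regions hold neither TATAAA (10.7% of windows) nor the AP-1 motif TGANTCA (6.57%), and each holds 1 match to TGACNNNGC, the core of the antioxidant response element (10.9%). GGGCGG, a binding sequence of Sp1 (42.6%), was matched once in ALPG and in ALPI and not in ALPP. Both strands were searched, and a match describes letters, not a bound site.

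The libraries held between 53558773 and 68804210 gene counts. RBM24 itself, which checks the labels, rose from 2.93 ± 0.576 CPM (SD, n = 3) to 120 ± 8.89 (SD, n = 3), a log2 change of 5.34 (SE 0.0995; edgeR quasi-likelihood test, Benjamini-Hochberg adjusted p = 2.16e-15). CPM is a gene's count as a share of the scaled library total. Across the tested genes, 153 (0.855%) were higher and 122 (0.682%) lower with RBM24 at an adjusted p under 0.05, together 1.54%, and the median log2 change was near 0 (-0.0037). Control library 1 stood apart on the leading principal component, so values without it are given below. All 8 markers of squamous epithelium were detected, with a summed level of 1719 to 1822 CPM in the control and 1909 to 1924 CPM in the RBM24 libraries. By edgeR, 0 of the 8 passed (3 at an unadjusted p under 0.05), while 2 were higher by DESeq2 and 1 by limma-voom. The part of these markers in the results below was not tested. Unadjusted counts, here and below, stand without the share of all tested genes at that threshold, and no excess is read from them.

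ALPP carried nearly all of the family's reads. The 3 control libraries held 785, 905 and 807 raw counts of ALPP, and the libraries with RBM24 held 1744, 1420 and 1695. These correspond to 14.3, 16.8 and 12.8 CPM for the control plasmid and to 25.3, 26.2 and 27.5 CPM with RBM24. The groups do not overlap, and the lowest RBM24 value, 25.3 CPM, stood above the highest control value, 16.8 CPM. The control libraries spread over a wider range than the RBM24 libraries. The group means were 14.6 ± 2.03 and 26.3 ± 1.14 CPM (SD, n = 3 each), a 1.80-fold difference in the fit (log2 0.85, SE 0.0841). In rank of CPM among tested genes, ALPP stood at the 52.2 percentile of the control levels and at the 63.5 percentile of the RBM24 levels. CPM is not scaled for transcript length, so these ranks do not place ALPP against other genes per length.

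ALPG was lower by far and also stood higher with RBM24. The control libraries held 23, 22 and 21 raw counts of ALPG, and the libraries with RBM24 held 59, 64 and 55. In CPM these are 0.418, 0.409 and 0.334 against 0.854, 1.18 and 0.894, so that the groups do not overlap and RBM24 library 2 is the highest. The means were 0.387 ± 0.0464 and 0.977 ± 0.179 CPM (SD, n = 3 each), and the fitted log2 change was 1.33 (SE 0.237), a 2.51-fold difference. ALPG, with the lower counts, has the larger SE of the pair. A log2 change at least as high as that of ALPP was found in 0.749% of tested genes, and one at least as high as that of ALPG in 0.257%. Both genes that passed the filter were among the 0.855% called higher, and both belong to the 9.53% of tested genes with every RBM24 library above every control library. These counts restate the contrast that chose the family and are not evidence about it.

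ALPL and ALPI were at the edge of detection. ALPL had 0, 6 and 3 counts in control cells and 2, 5 and 1 with RBM24, all at or below 0.112 CPM, and the groups overlap throughout. The ratio of its summed counts, RBM24 over control, was 0.842 with an exact 95% interval of 0.283 to 2.46, which covers counting error only. The 1.80-fold difference of ALPP lies inside that interval and the 2.51-fold difference of ALPG just above it, so a change of ALPL of the size of ALPP was not detectable at this depth. ALPI had no count in 5 of the 6 libraries and 3 counts in RBM24 library 2. A count of 0 allows up to 3 counts, which is 0.0434 to 0.0558 CPM in these libraries, and the 3 counts of RBM24 library 2 (0.0555 CPM) are at that limit, so no fold is given. These intervals and limits take reads as independent molecules, which reads amplified by PCR are not.

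**Figure D2:**
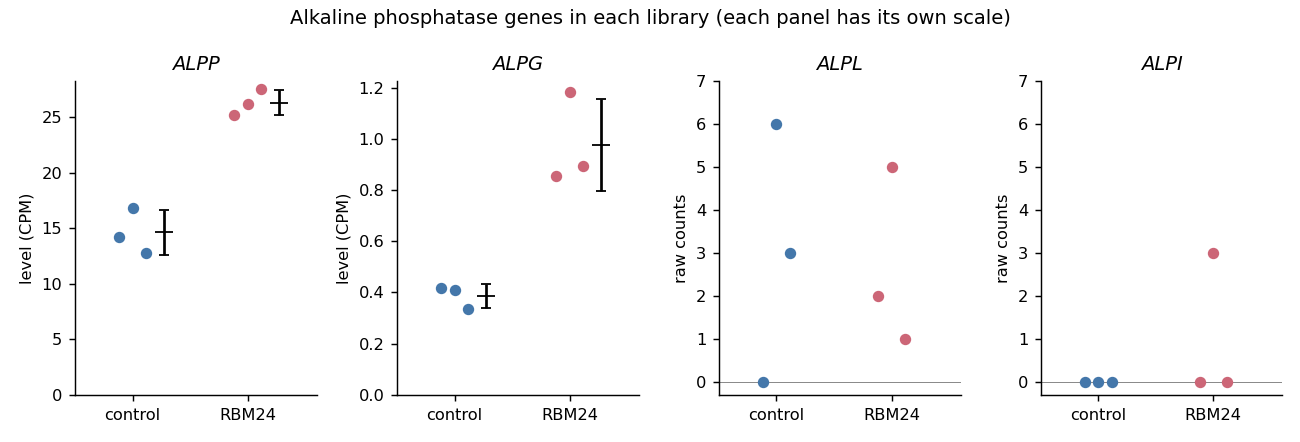
Level of ALPP and ALPG in CPM and raw counts of ALPL and ALPI (vertical axes, each panel on its own scale) in the 3 control and 3 RBM24 libraries; points are libraries, and the bars beside ALPP and ALPG are mean ± SD. The ALPP and ALPG points of the 2 groups do not overlap, ALPL ranges from 0 to 6 counts in both groups together, and ALPI has 3 counts in 1 library.

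Levels of different genes can be compared only per length, for which the deposited FPKM values (fragments scaled for transcript length and depth) were used. In the control libraries ALPP stood at 4.47, 5.32 and 4.19 FPKM and ALPG at 0.15, 0.15 and 0.13. With RBM24 the values were 8.18, 8.57 and 9.02 FPKM for ALPP and 0.32, 0.44 and 0.34 for ALPG. ALPL lay between 0 and 0.03 FPKM and ALPI between 0 and 0.02, where rounding to 2 decimals sets the resolution. The order was therefore ALPP, then ALPG, then ALPL and ALPI, in every library for the first pair, while the last pair does not differ beyond its spread. Per length, ALPP was 29.8- to 35.5-fold above ALPG in the control libraries and 19.5- to 26.5-fold above it in the RBM24 libraries. On group means, ALPP stood at 4.66 ± 0.588 and 8.59 ± 0.420 FPKM and ALPG at 0.143 ± 0.0115 and 0.367 ± 0.0643 FPKM (SD, n = 3 each), which is 1.84-fold and 2.56-fold.

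The split between the near-identical pair was examined within each library. ALPG made up 2.85%, 2.37% and 2.54% of the summed counts of ALPP, ALPG and ALPI in the control libraries. In the RBM24 libraries it made up 3.27%, 4.30% and 3.14%. The shares of the groups do not overlap, but the exact 95% binomial intervals of single libraries overlap, for example 1.81% to 4.24% in control library 1 and 2.50% to 4.20% in RBM24 library 1. The means were 2.59% ± 0.240 and 3.57% ± 0.636 (SD, n = 3 each). How many of the ALPG counts come from ALPP was not tested, since counts per gene hold no positions. Summed to 1 feature before the fit, the 3 chromosome 2 genes had 808, 927 and 828 counts with the control plasmid and 1803, 1487 and 1750 with RBM24, a log2 change of 0.87 (SE 0.0834). The sum does not depend on how counted reads were divided among the 3 genes. It would still depend on whether multiply placed reads were dropped or counted more than once, which is not known. Its log2 change lies close to that of ALPP, which held 95.2% to 97.2% of the family's counts in each library.

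**Figure D3:**
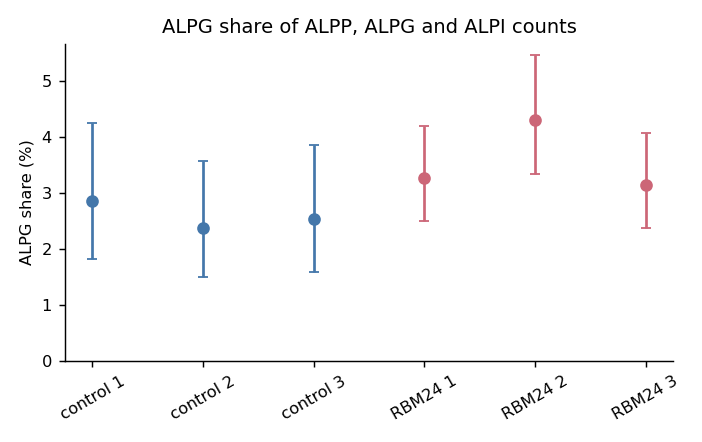
Share of ALPG, in percent, in the summed counts of ALPP, ALPG and ALPI (vertical axis) in each library; points are the libraries and bars are exact 95% binomial intervals of the counts. The control libraries lie between 2.37% and 2.85% and the RBM24 libraries between 3.14% and 4.30%, with intervals that overlap.

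An antisense entry, AC068134.8 (chromosome 2, 232379635 to 232381674, minus strand), lies within ALPP and held 0 to 5 counts per library. Whether counting used strand is not given, so it is not known whether reads of ALPP and of this entry were separated where they overlap. Of the untested entries around the cluster, 2 are named here after their values were seen. NRBF2P6, a processed pseudogene that lies within DIS3L2, had 2, 1 and 2 counts in control cells and 10, 10 and 4 with RBM24. PRSS56, which encodes a serine protease and lies 60.4 kb after ALPI, had 0 counts in each control library and 7, 0 and 2 with RBM24. The raw counts of NRBF2P6, not scaled for depth, do not overlap between the groups, those of PRSS56 do, and both are too low for the filter. By CPM, 9.53% of tested genes have every RBM24 library above every control library. The share among untested entries was not computed, and nothing is read from these 2. The other untested entries, apart from ALPI and the antisense entry, held 0 to 2 counts per library. The nearest tested neighbour upstream was DIS3L2, which encodes an exoribonuclease and ends 34.2 kb before ALPP (log2 change 0.00, SE 0.0617, edgeR adjusted p = 0.992), and downstream it was TIGD1, 87.9 kb after ALPI (log2 change -0.12, SE 0.0920, adjusted p = 0.615). EIF4E2, which encodes a cap-binding translation repressor 90.0 kb after ALPI, followed (log2 change 0.02, SE 0.0553, adjusted p = 0.943). Of the 21 listed neighbours, 12 were tested and 0 passed, also 0 at an unadjusted p under 0.05 and 0 by DESeq2 or limma-voom, with a median log2 change of 0.01. PTMA and NCL, the most abundant of them, lie 665 and 895 kb from the cluster. They had edgeR log2 changes of -0.02 (adjusted p = 0.918) and 0.08 with adjusted p = 0.595. The tested neighbours lay 34.2 to 1015 kb from the cluster, so the list is wider than the immediate locus. On chromosome 1, 12 of 14 listed neighbours of ALPL were tested and 1 rose, PINK1, a mitochondrial kinase gene 858 kb from ALPL. It stood at 70.6 ± 4.59 and 83.3 ± 0.378 CPM (SD, n = 3 each), and edgeR gave a log2 change of 0.24 (SE 0.0529, adjusted p = 0.0304). PINK1 lost its call without any one of 5 libraries, all but control library 2.

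The genes whose course over the 6 libraries was closest to ALPP were sought by a fixed rule among 10733 protein-coding genes whose log2 CPM averaged 2 or more. The measure was the root mean square difference between the log2 CPM values, each centred on the gene's mean. Among the closest were HMOX1, the inducible heme oxygenase (0.141), CDKN2D, an inhibitor of CDK4 and CDK6 (0.144), the histone gene H2BC11 (0.162) and SNAI1, which encodes the zinc finger repressor Snail (0.164). The median over all genes compared was 0.451. HMOX1 stood at 10.5, 10.1 and 9.85 CPM with the control plasmid and at 17.9, 17.3 and 16.5 with RBM24. For ALPG the closest were AKR1C2, a steroid-reducing enzyme gene (0.245), ALPP itself (0.259), SNAI1 (0.262), the stress response gene GADD45B (0.262) and the interferon-induced IFI27 (0.285), against a median of 0.657. Genes with a like difference between the groups are close by this measure, whatever their order within a group, and nothing about shared control follows from it.

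**Figure D4:**
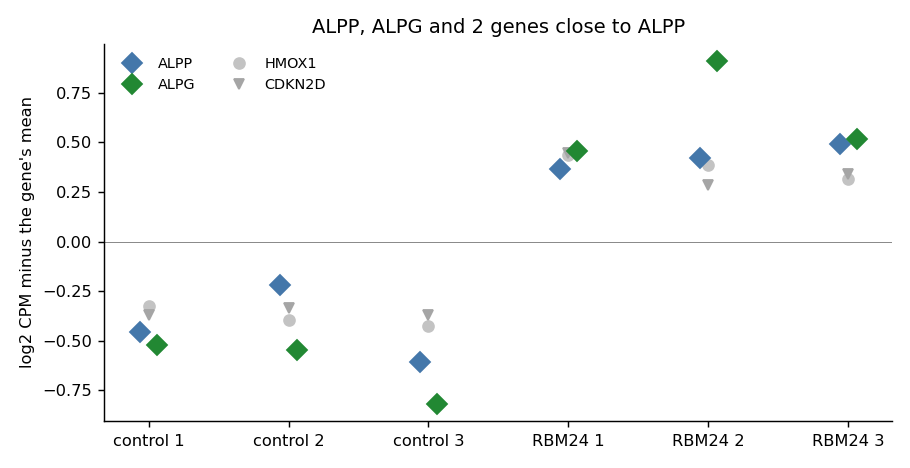
Log2 CPM minus each gene's mean over the 6 libraries (vertical axis) in each library (horizontal axis) for ALPP, ALPG, HMOX1 and CDKN2D; each symbol is 1 gene in 1 library. All 4 genes lie below 0 in the control libraries and above 0 in the RBM24 libraries, and ALPG is highest in RBM24 library 2.

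Genes of the machinery that makes an active alkaline phosphatase were compared next, by edgeR with Benjamini-Hochberg adjustment. All 6 listed zinc transporters of the secretory pathway were tested and 0 passed (1 at an unadjusted p under 0.05; 0 by DESeq2 or limma-voom), with a median log2 change of -0.07. Among them SLC30A5, SLC30A6 and SLC30A7, whose products load zinc into alkaline phosphatases, had log2 changes of -0.10, -0.04 and -0.19 (adjusted p = 0.453, 0.818 and 0.136); these 3 were chosen for their role after their values were seen. The most abundant, SLC39A7 and SLC39A9, gave -0.03 (adjusted p = 0.856) and -0.10 (adjusted p = 0.391). Metallothionein genes, which respond to zinc, had positive log2 changes in 6 of 6 tested (median 0.13), and 0 passed (1 at an unadjusted p under 0.05). By DESeq2 1 passed, MT1M, and by limma-voom 0. The positive changes stand without the share of all tested genes, and a response to zinc was not tested. MT1M stood at 4.33, 5.04 and 3.45 CPM in the control and 5.98, 6.04 and 5.57 CPM in the RBM24 libraries (edgeR adjusted p = 0.0704). Its groups alone do not overlap, as in 9.53% of tested genes in that direction. MT2A stood at 1334 ± 162 and 1416 ± 87.1 CPM (SD, n = 3 each) and MT1E at 545 ± 46.7 and 580 ± 34.5 CPM (SD, n = 3 each), with groups that overlap in both genes.

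Of 32 genes of GPI anchor synthesis and attachment, 31 were tested and 0 passed (1 at an unadjusted p under 0.05; 0 by DESeq2 or limma-voom), with 12 positive and 19 negative log2 changes and a median of -0.03. PIGT, a subunit of the GPI transamidase that attaches the anchor, had a log2 change of 0.01 (adjusted p = 0.946), and DPM1, a subunit of dolichol-phosphate mannose synthase, one of -0.03 (adjusted p = 0.855). Other GPI-anchored surface proteins were compared as genes that share the anchor. Of 40, 31 were tested, with a median log2 change of 0.01. At an unadjusted p under 0.05 in edgeR there were 10 in either direction, given without the share of all tested genes. By DESeq2 0 were higher and 2 lower, and by edgeR 0 rose and 1 fell. The one that fell was EFNA1, which encodes ephrin-A1, a ligand of Eph receptors, by 0.39 on the log2 scale in edgeR (SE 0.0759, Benjamini-Hochberg adjusted p = 0.0157). Its control libraries stood at 207, 210.4 and 166 CPM and its RBM24 libraries at 139, 149 and 158 CPM. The groups do not overlap in EFNA1 (8.62% of tested genes have all RBM24 values below the control values), and the gene no longer passed when RBM24 library 1 (adjusted p = 0.0777) or RBM24 library 2 (0.0771) was omitted, nor in the FPKM fits (0.164 to 0.361).

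Alkaline phosphatases act on nucleotides, pyrophosphate and pyridoxal phosphate outside the cell, beside other ectoenzymes and transporters. Of 18 genes that handle extracellular nucleotides, pyrophosphate and adenosine, 12 were tested and 0 passed (median log2 change 0.05), with 4 at an unadjusted p under 0.05. By DESeq2, 1 of them, ADA, was lower, and by limma-voom 0 passed. NT5E, which encodes CD73, the ectoenzyme that makes adenosine from AMP, stood at 92.3 ± 3.51 and 100.4 ± 5.04 CPM (SD, n = 3 each; adjusted p = 0.327), and the ATP release channel gene PANX1 had a log2 change of -0.03 (adjusted p = 0.874). Of 13 genes of phosphate transport and mineralisation, 8 were tested and 0 passed (median 0.07; 1 at an unadjusted p under 0.05, 0 by DESeq2 or limma-voom). The phosphate transporter gene SLC20A1 had a log2 change of 0.04 (adjusted p = 0.793) and SPARC, which encodes osteonectin, one of -0.02 (adjusted p = 0.908). All 5 genes of vitamin B6 metabolism were tested and 0 passed, also at an unadjusted p under 0.05 and by DESeq2 or limma-voom, among them the kinase gene PDXK (log2 change 0.02, adjusted p = 0.932). Genes named as acid phosphatases, whose products are not related to alkaline phosphatases, had 6 of 7 tested and 0 passed (1 at an unadjusted p under 0.05, 0 by DESeq2 or limma-voom). The most abundant were ACP1 (log2 change -0.06, adjusted p = 0.615) and ACP2 (-0.08, adjusted p = 0.590).

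Transcription factors of the tissues in which these genes are normally active were listed as well. Of 20, 15 were tested and 0 passed (median log2 change 0.03; 3 at an unadjusted p under 0.05, 0 by DESeq2 or limma-voom). CEBPB had a log2 change of 0.06 (adjusted p = 0.779) and RXRA, the partner of many nuclear receptors, one of 0.02 (adjusted p = 0.889). Over all lists together, 141 of 180 genes were tested, 1 rose and 1 fell, beside 0.855% and 0.682% of all tested genes. By DESeq2, 2 rose and 3 fell, beside 212 higher and 160 lower among the same 17887 genes entered. DESeq2 may leave some of these without an adjusted p, so no share is given.

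**Figure D5:**
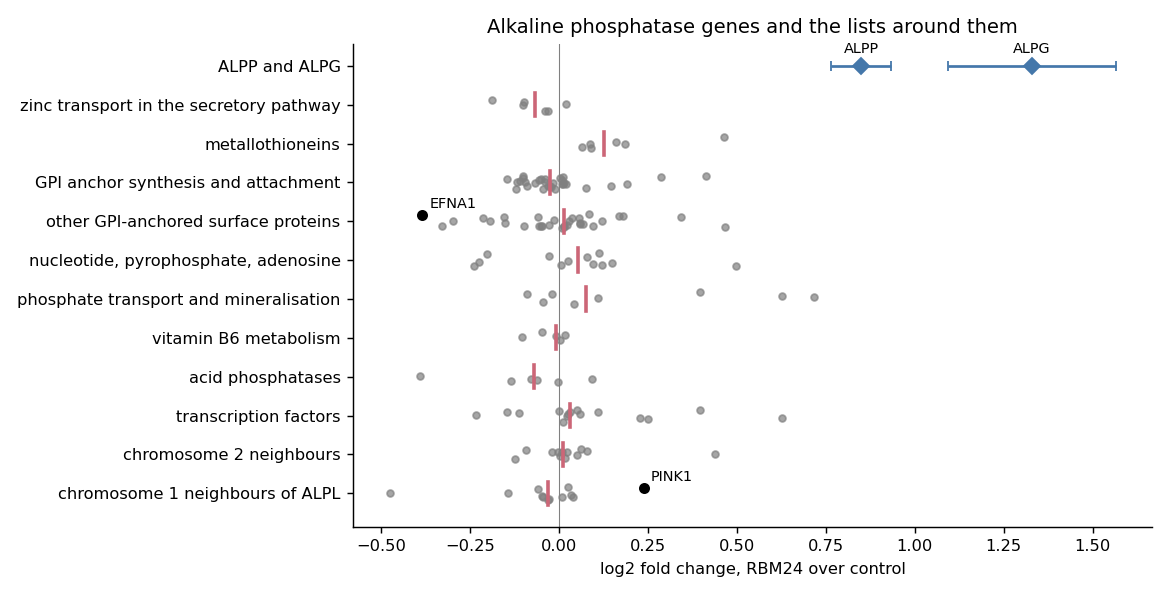
Log2 fold change, RBM24 over control (horizontal axis), of ALPP and ALPG (diamonds with SE) and of every tested gene of the lists (points; vertical bars are list medians). EFNA1 and PINK1, in black, passed at an adjusted p under 0.05, and every list median lies between -0.07 and 0.13.

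Other cell types in which these phosphatases are normally made were looked for by their markers. Of 20 trophoblast markers, 14 had a count and 3 were tested. Their summed level was 3.51 to 3.68 CPM in the control libraries and 3.33 to 4.56 CPM in the RBM24 libraries, most of it PSG4 (1.72 to 2.33 CPM). CGA, the common subunit of the glycoprotein hormones, had 1 count in all libraries together, and GH2, CSH1, ERVW-1, ERVFRD-1, HSD3B1 and SIGLEC6 had no row in the count table used here. Germ cell markers summed to 8.53 to 9.21 CPM in the control and 7.20 to 8.19 CPM in the RBM24 libraries, most of it POU5F1, while LIN28A had 1 count in all and NANOG had no row. Enterocyte markers summed to at most 0.617 CPM, and osteoblast markers to 23.0 to 26.4 and 25.7 to 27.2 CPM. These were led by COL1A1 (9.82 to 11.8 CPM), which was also listed as a fibroblast marker, and RUNX2 (7.46 to 9.59 CPM). IBSP lay at 0.200 to 0.390 CPM and BGLAP at 0.0636 to 0.130 CPM, while SP7 and DMP1 had no row. Hepatocyte markers summed to 131 to 158 CPM in the control and 132 to 135 CPM in the RBM24 libraries, most of it SERPINA1 (131 to 157 CPM). ALB, APOA1, TTR, APOH and FGB had 1 to 29 counts each in all libraries together. Of the tested markers of these lists, 0 passed by edgeR, DESeq2 or limma-voom, and the smallest edgeR adjusted p was 0.182, for COL1A2. At an unadjusted p under 0.05 in edgeR there was 1 each in the germ cell, osteoblast and hepatocyte lists. The part of such cells in the ALPP and ALPG values was not tested. In bulk RNA a change in the number of cells that express a gene and a change in RNA per cell cannot be told apart.

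RBM24 binds RNA rich in G and U. The pentamer GUGUG, read as GTGTG on the transcript strand alone, occurred 2 times in the ALPP transcript (0.673 per kb) and 1 time in ALPG (0.401 per kb). ALPI had 3 matches (1.18 per kb) and ALPL had 1 (0.386 per kb). The median over the longest protein-coding transcript of 19702 genes was 1.15 per kb, and 88.5% of them held at least 1 match. ALPP lay at the 27.1 percentile of that distribution and ALPG at the 16.0 percentile. A match is not a binding site, and no binding data were used here.

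Leaving out 1 library at a time moved the log2 change of ALPP between 0.76 and 0.96 and that of ALPG between 1.18 and 1.42. Without control library 1, the one that stood apart, they were 0.83 and 1.39. The lowest value of ALPP came without control library 3, and the lowest of ALPG without RBM24 library 2, its highest library.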

How the data were processed

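RNA of 3 control and 3 RBM24 libraries was sequenced in 150-base pairs, per the labels' protocols. The authors deposited raw counts per gene and FPKM values, and HISAT2 and GRCh38 are named per the submitters' processing notes. The counter, its annotation, the use of strand and the treatment of multiply placed reads are not given in the sources used here. Counts of 17887 genes that passed filterByExpr were fitted with edgeR 4.0.16 (TMM, quasi-likelihood test, group only, Benjamini-Hochberg adjustment, threshold 0.05), in R 4.3.3. The deposited FPKM values served for levels between genes and, with limma 3.58.1 on log2(FPKM + 1), as an alternative, beside DESeq2 1.42.0. The SE of a log2 change is its absolute value divided by the square root of the F statistic of the quasi-likelihood test. It therefore restates that test and is not a separate estimate. The edgeR script was tested on simulated data. Transcripts came from GENCODE 29 and upstream windows from RefSeq. Intervals are exact (Clopper-Pearson, 95%) and cover counting error only.

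The genes and lists were chosen with earlier results of these data known. Named genes are the 4 phosphatases, RBM24, the 5 genes closest to ALPP and to ALPG, each called list gene and, where a list had none, its 2 most abundant tested genes. Some items that this rule names are not reported here.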

Additional observations from a re-analysis of the deposited data

How the results depend on the processing

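The log2 change of ALPP lay between 0.76 and 0.96 with 1 library left out and between 0.76 and 0.88 under all other alternatives. That of ALPG lay between 1.18 and 1.42 with 1 library left out, but was 0.26 on log2(FPKM + 1), with or without the filter, and 0.93 on log2(FPKM + 0.1), where the pseudocount is large beside its level. With a mean count of at least 50, ALPG was not tested. Genes higher numbered 153, and 305 without the low-count filter, 46 on log2(FPKM + 1), 57 on log2(FPKM + 0.1), 15 on FPKM with no filter and 61 to 171 with 1 library left out. Genes lower numbered 122, and 341, 4, 5, 4 and 29 to 198 in the same order. Scaled by total counts alone, 223 were higher and 106 lower, so that 67.8% of calls were higher in place of 55.6%. DESeq2 called 212 higher and 160 lower. Of the list genes, 1 was higher, against 3 with total counts, 5 without the filter, 2 by DESeq2, 0 in the 3 FPKM fits and 0 to 2 with 1 library left out. Of the list genes, 1 was lower, against 4 without the filter, 3 by DESeq2, 0 in the FPKM fits and 0 to 2 with 1 library left out. The replicate numbers did not pair the libraries (correlations of same-numbered deviations 0.0072, 0.056 and -0.00039), and with the replicate block 158 genes were higher and 135 lower, 2 list genes were higher, and ALPP and ALPG changed by 0.86 and 1.32. Of the 29 other genes named by the rule above, the 11 that had passed kept their direction in all 198 alternative fits and lost the call in 21. The 18 that had not passed did not pass in any of their 324 fits, and in 24 of these, for 8 genes with log2 changes of at most 0.033 in size, the sign turned. Genes named outside that rule are not in these counts, among them MT1M and ADA, which passed by DESeq2. Apart from the pseudocount, the cause was not tested.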
